A study of Mus musculus with 6 samples.

Results

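The islet hormone genes were examined in a tiling array study of DNA methylation in the mouse pancreas. They comprise Ins1 and Ins2 (the paired mouse insulin genes of beta cells), Iapp (amylin, secreted with insulin), Gcg (glucagon, of alpha cells), Sst (somatostatin, of delta cells) and Ppy (pancreatic polypeptide, of PP cells). Each gene was represented by the array probes whose mm9 start lay in a fixed window around it. Of 174638 non-control probes on the array, 57 lay in these windows: 8 each for Ins1, Ins2, Gcg and Sst, 4 for Iapp and 21 for Ppy.

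The samples were pancreatic tissue of 12-week-old offspring, 3 from dams with glucose intolerance (called hyperglycemic in the series text) and 3 from dams with normal glucose tolerance, and the series asks whether the mother's state goes with altered methylation in the offspring. How the intolerance was brought about, the strain, the sex and whether the offspring of a group were born to different dams are not given in the sources used here, so each p-value reflects how far these samples spread, some of which may be technical. In methylated DNA immunoprecipitation (MeDIP) an antibody pulls down fragments that carry methylated cytosines. The pulled-down DNA, in Cy5, was hybridised with input DNA of the same sample, in Cy3. Values are log2 ratios of MeDIP over input signal, centred so that each array's median non-control probe is at 0, so a positive value means more pull-down than at the median probe.

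The islet hormones are made by separate endocrine cell types that control blood glucose: insulin lowers it, glucagon raises it, and somatostatin and pancreatic polypeptide restrain secretion. Promoters of hormone genes tend to be less methylated in the cell type that expresses them than in others, as has been described for the insulin genes in beta cells. Islets make up a small part of the pancreas, most of which is acinar tissue, so a ratio from whole tissue is an average over mostly non-endocrine cells. The arrays measure DNA and gave no marker expression against which the tissue label or the islet content could be checked.

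MeDIP captures methylated CpG sites, and the promoters of these genes differ in how many they hold. The 250 bases before the start site, from RefSeq on build GRCm38.p6, are shown for the 5 genes matched by symbol, 5′ to 3′ on the gene's strand, with each CpG in capitals. The probe positions are on mm9 and were not converted, so a probe cannot be placed on these sequences.
Ins1 (chr19:52264047-52264296, plus strand): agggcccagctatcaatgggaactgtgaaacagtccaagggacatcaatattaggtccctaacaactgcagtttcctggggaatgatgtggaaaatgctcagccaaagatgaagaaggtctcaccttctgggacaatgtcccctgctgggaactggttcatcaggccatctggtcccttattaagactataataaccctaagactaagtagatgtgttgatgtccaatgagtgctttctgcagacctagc
Iapp (chr6:142298175-142298424, plus strand): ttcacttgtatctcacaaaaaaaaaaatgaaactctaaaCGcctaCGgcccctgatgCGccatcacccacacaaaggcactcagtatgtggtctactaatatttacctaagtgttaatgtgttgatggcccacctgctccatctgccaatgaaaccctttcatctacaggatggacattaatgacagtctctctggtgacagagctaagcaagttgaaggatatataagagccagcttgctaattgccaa
Gcg (chr2:62483654-62483903, minus strand): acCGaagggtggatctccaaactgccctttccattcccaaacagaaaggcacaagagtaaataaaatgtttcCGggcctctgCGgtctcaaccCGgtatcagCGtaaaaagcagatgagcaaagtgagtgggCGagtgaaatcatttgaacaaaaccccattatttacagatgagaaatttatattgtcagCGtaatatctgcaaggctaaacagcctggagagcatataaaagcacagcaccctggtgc
Sst (chr16:23890845-23891094, minus strand): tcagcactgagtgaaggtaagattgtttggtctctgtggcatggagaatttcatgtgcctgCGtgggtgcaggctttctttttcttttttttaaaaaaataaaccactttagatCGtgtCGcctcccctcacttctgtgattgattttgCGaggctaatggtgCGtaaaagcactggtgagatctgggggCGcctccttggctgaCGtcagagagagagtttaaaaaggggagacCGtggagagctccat
Ppy (chr11:102101320-102101569, minus strand): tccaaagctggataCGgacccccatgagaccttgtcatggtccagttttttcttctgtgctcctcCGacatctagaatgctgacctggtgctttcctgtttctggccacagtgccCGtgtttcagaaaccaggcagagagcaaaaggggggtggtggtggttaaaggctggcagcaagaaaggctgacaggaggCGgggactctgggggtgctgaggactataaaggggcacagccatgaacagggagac
The Ins1 stretch held 0 CpG sites, as did 7.87% of the 32851 promoters in the table. There were 3 in Iapp, 4 in Ppy, 7 in Gcg and 8 in Sst, beside a median of 6 over all promoters. The Sst stretch held the cyclic AMP response element TGACGTCA, which reads the same on both strands, contains a CpG and was present in 1.55% of all promoters. No promoter sequence is shown for Ins2.

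Signal over background set what could be tested. Input spots were well above background for 71.0% to 78.7% of all probes on the glucose intolerance arrays, against 85.5% to 92.4% on the normal tolerance arrays. The green channel, which carries the input, was scanned at the same voltage on all 6 arrays (356). The red channel, which carries the MeDIP signal, was scanned at a lower voltage in the glucose intolerance group (359 against 394 and 421). The 6 arrays carried 3 different scan stamps. Arrays with the same stamp are called a slide here, which was not checked against a slide identifier. All of the glucose intolerance arrays shared 1 stamp, normal tolerance replicate 1 alone had another, and the other 2 shared the last. No slide in this sense held both groups, so slide and group cannot be told apart. A probe was tested where its input was well above background on all 6 arrays. This kept 34 of the 57 islet hormone probes (59.65%), beside 66.4% of all probes: 3 of 8 for Ins1, 6 of 8 for Ins2, 1 of 4 for Iapp, 2 of 8 for Gcg, 7 of 8 for Sst and 15 of 21 for Ppy. All of the 23 probes left out were dim on at least 1 glucose intolerance array, and 13 of them were dim on no normal tolerance array.

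None of the 34 tested probes differed between the groups at an adjusted p of 0.05 (limma, Benjamini-Hochberg over 113885 probes), where 0.000878% of all tested probes passed. Their adjusted p ranged from 0.204 to 0.995. At an unadjusted p under 0.05 there were 4 of 34 (11.76%), beside 15.9% of all tested probes, so the hormone genes did not hold a larger share than the array as a whole. Of these, 2 were higher with maternal glucose intolerance, in the Gcg and Ins1 windows (background 10.4%), and 2 were lower, in the Sst and Ppy windows (background 5.56%). Of all 34, 22 (64.71%) had a higher mean with maternal glucose intolerance, beside 62.9% of all tested probes, and their median difference was 0.13 log2 units, as was the median over all tested probes (0.13). Among the 28 with values on all 6 arrays, the groups did not overlap in 4 higher and 3 lower probes (14.29% and 10.71%), beside 13.2% and 8.14% of all such probes. Of the 5 regions of neighbouring kept probes that touched the windows (in Ins2, Sst and, for 3 of them, Ppy), 0 passed an adjusted p of 0.05 and 0 an unadjusted one in limma, beside 0 and 15.8% of 18562 regions. The 95% interval of a probe's difference lay within 1 log2 unit of 0 for 26 of the 34 probes, with half-widths from 0.46 to 1.20, so a difference of 2-fold or more was outside the interval for these 26 and could not be left out for the other 8.

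**Figure D1:**
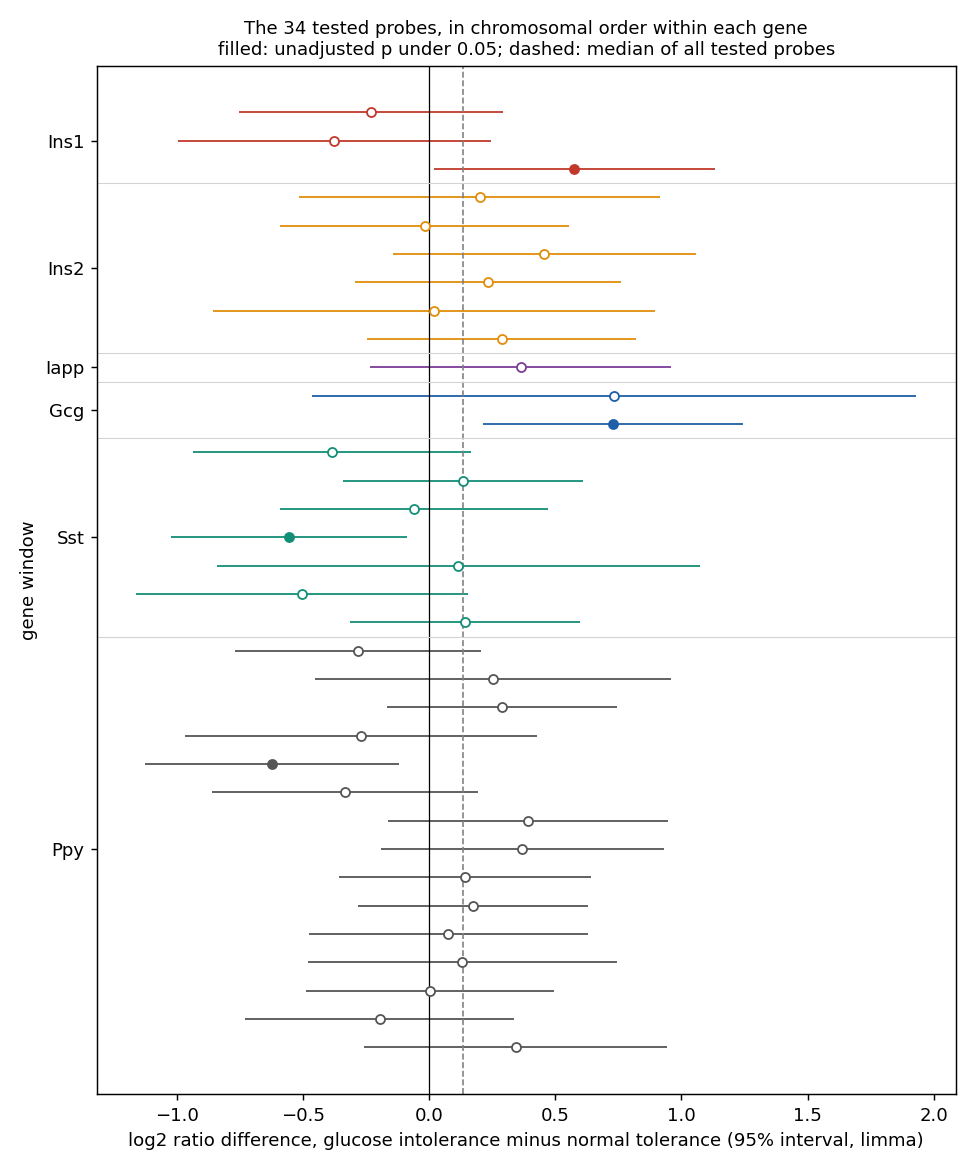
Difference in log2 ratio between offspring of glucose-intolerant and of normally tolerant dams for the 34 tested probes, with 95% limma intervals, grouped by gene; filled points have an unadjusted p under 0.05 and the dashed line is the median of all tested probes (0.13). Differences run from -0.62 to 0.73, and 30 of 34 intervals include 0.

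Ins1 had 8 probes between 52337598 and 52339174 on chromosome 19 (mm9). Of the 3 kept probes 1 was higher and 2 were lower with maternal glucose intolerance. At the probe starting at 52338001 the ratio was -0.15, 0.21 and -0.15 in the glucose intolerance group, replicates in order, and 0.02, 0.48 and 0.11 in the normal tolerance group. The groups overlapped, and the difference of -0.23 had a 95% interval from -0.75 to 0.29 (limma, adjusted p 0.638). It was -0.09 without normal tolerance replicate 2 and -0.35 without glucose intolerance replicate 2. At the probe starting at 52339130 the ratio was -0.58, -0.84 and -0.60 against -1.30 and -1.20 on normal tolerance replicates 2 and 3; the spot of replicate 1 was an outlier and was left out. Both of these lay below all glucose intolerance arrays, with a difference of 0.58 ± 0.24 (SE; limma, adjusted p 0.303). With the outlier spot kept the difference was 0.19. Relative to the array medians the MeDIP signal of this probe differed by -0.05 log2 units and the input signal by -0.55, so the ratio differed mostly through the input channel. The remaining kept probe, at 52338924, differed by -0.38 (adjusted p 0.512). The kept Ins1 probes averaged -0.24 ± 0.09 in the glucose intolerance group against -0.12 ± 0.13 in the other (SD, n = 3 each). The value of normal tolerance replicate 1 in that mean rests on 1 probe, because 2 of its 3 spots were outliers. The difference of these means, -0.11, was -0.04 without that array, and the 3 fitted probe differences averaged -0.01.

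In the value table that the authors deposited, which is on a log2 scale and whose processing is not given in the sources used here, Ins1 was the one hormone gene with probes or a region past an adjusted p of 0.05 when all probes were kept. This combination of values and filter was chosen after seeing the data. Averaged over the 8 probes, these values were -0.20, -0.37 and -0.22 on the glucose intolerance arrays, against 0.07, 0.13 and 0.08 on the others. The groups did not overlap, as in 15.7% of all regions of that table in the same direction, and the difference was -0.35 with a 95% interval from -0.52 to -0.19 (limma, adjusted p 0.0274 over 22574 regions, of which 8.14% passed, 3.91% as lower). A random block for slide ended the call (adjusted p 0.0616). So did dropping any one of the 3 glucose intolerance arrays or of normal tolerance replicates 2 and 3 (adjusted p 0.0587 to 0.0972), while it held without normal tolerance replicate 1 (adjusted p 0.0199). The number of regions past 0.05 on the whole array moved likewise. It fell from 1838 to 358 with the slide block and to between 0 and 501 in those drops, and rose to 4035 without normal tolerance replicate 1. Losing the call is thus not particular to Ins1. The Ins1 difference itself stayed between -0.30 and -0.39 throughout. Within the region were 3 adjacent probes, starting at 52338274, 52338522 and 52338716, which differed by -0.64, -0.68 and -0.58 and passed singly (adjusted p 0.0306, 0.0243 and 0.0347), beside 8.77% of all probes, 4.33% as lower. All 3 had been left out of the main test for dim input. At 52338274 neither channel was well above background on any array, and at 52338522 the MeDIP signal was so on 0 of 3 glucose intolerance arrays and on 2 of 3 normal tolerance arrays. At 52338716 the MeDIP signal was well above background on 3 of 3 arrays of each group. The input there was so on 1 of 3 glucose intolerance arrays and 3 of 3 normal tolerance arrays. The scanner ratios of that probe differed by -0.12. In the scanner ratios of the same 8 probes the difference was -0.22 (adjusted p 0.411), with 5 probes lower and 3 higher. The part of dim spots in this result was not tested.

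Ins2 had 8 probes between 149865127 and 149866593 on chromosome 7 (mm9), of which 6 were kept and formed a tested region from 149865127 to 149866403. The region mean was 0.57, 0.29 and 0.16 on the glucose intolerance arrays and 0.07, 0.15 and 0.14 on the others. All 3 glucose intolerance arrays lay above all normal tolerance arrays, as was the case in 17.5% of all regions (4.62% had them all below). The difference was 0.22 with a 95% interval from -0.09 to 0.54 (limma, adjusted p 0.437), and it was 0.11 without glucose intolerance replicate 1. The probe with the largest difference started at 149865525 and had ratios of 1.61, 0.90 and 0.91 against 0.89, 0.68 and 0.48. Its difference was 0.46 ± 0.26 (SE; adjusted p 0.426), or 0.22 without glucose intolerance replicate 1, with the MeDIP signal at -0.34 and the input signal at -0.66 relative to the array medians. Of the 6 tested probes 5 were higher, but with the authors' deposited values the mean difference over the same probes was 0.04. The MeDIP channel cleared background on all 24 spots of each group, the most complete signal among the 6 genes.

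Iapp had 4 probes between 142245891 and 142246995 on chromosome 6 (mm9), and 1 was kept. At this probe, which started at 142246746, the ratio was -0.73, -0.81 and -0.68 on the glucose intolerance arrays, against -0.58, -1.35 and -1.37 on the others. Normal tolerance replicate 1 lay above all other arrays and its group mates below all of them, so the groups overlapped. The difference was 0.36 with a 95% interval from -0.23 to 0.96 (limma, adjusted p 0.516), and 0.62 without normal tolerance replicate 1, 0.24 without replicate 2 and 0.23 without replicate 3 of that group. The input channel cleared background on 5 of 12 spots in the glucose intolerance group and on 12 of 12 in the other, which is why the other 3 probes could not be tested. Over all 4 probes the mean difference was 0.04, in which dim probes at -1.47 (starting at 142245891) and 1.34 (starting at 142246513) offset each other. With no filter, the region of 3 probes from 142246513 to 142246995 differed by 0.54 (limma, adjusted p 0.323).

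Gcg had 8 probes between 62321211 and 62322821 on chromosome 2 (mm9) and gave the lowest adjusted p of the hormone genes. At the probe starting at 62322352 the ratio was -0.46, -0.55 and -0.54 on the glucose intolerance arrays and -1.58, -0.99 and -1.18 on the normal tolerance arrays. All of the first lay above all of the second, and the first varied by less (SD 0.05 against 0.30). The difference was 0.73 with a 95% interval from 0.21 to 1.24, and the adjusted p was 0.204 (limma). The MeDIP signal of this probe differed by -0.42 and the input signal by -1.02 relative to the array medians, so both signals were lower with maternal glucose intolerance and the input the more so. The other kept probe, starting at 62321831, had ratios of -0.91, -0.26 and -0.33 against -2.23, 0.08 and -1.54. Its difference was also 0.73, but the normal tolerance arrays spread over both sides of the other group, and their MeDIP signal cleared background on 1 of 3 arrays (adjusted p 0.513). It was 0.23 without normal tolerance replicate 1 and 1.39 without normal tolerance replicate 2. The mean over both probes was -0.51 ± 0.15 against -1.24 ± 0.73 (SD, n = 3 each). Its difference of 0.73 was 0.40 without normal tolerance replicate 1, 1.12 without normal tolerance replicate 2, and 0.12 over all 8 probes. The MeDIP channel cleared background on 10 of 24 spots in each group, so at Gcg the signal was more often unmeasured than measured.

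Sst had 8 probes between 23890446 and 23892060 on chromosome 16 (mm9), and the 7 kept formed a tested region from 23890446 to 23891846. The region mean was -0.41, -0.02 and 0.02 on the glucose intolerance arrays, against 0.01, 0.09 and -0.03 on the others. Glucose intolerance replicate 1 was the lowest and the other 5 arrays lay close together. These means include a probe, described below, whose MeDIP signal was not measured above background. The difference was -0.16 with a 95% interval from -0.50 to 0.17 (limma, adjusted p 0.587), and -0.02 without glucose intolerance replicate 1. At the probe starting at 23891118 the ratio was 0.06, 0.36 and 0.21 against 0.88, 0.64 and 0.78. The groups did not overlap, and the difference was -0.56 with a 95% interval from -1.03 to -0.09 (adjusted p 0.255). Here the MeDIP signal differed by -0.03 and the input signal by 0.65 relative to the array medians. The next probe, starting at 23891318, had ratios of -3.60, -2.15 and -1.90 against -2.58, -2.50 and -2.92. Its input was well above background on all 6 arrays and its MeDIP signal on none, so the MeDIP side of these ratios was not measured. The probe's difference was 0.12 with the signals as given and -0.31 with dim MeDIP spots raised to the background limit, so no direction is given for it. With dim spots so raised, the region difference was -0.29. Over the 6 probes with both channels well above background it was -0.21 (limma, adjusted p 0.410). The unmeasured ratio was lowest on glucose intolerance replicate 1. The low region mean of that array, and the difference of -0.02 without it, therefore rest in part on unmeasured spots. With the authors' deposited values all 8 Sst probes were lower with maternal glucose intolerance, with differences from -0.32 to -0.11. The median difference over all probes of that table was 0.011, and the share of them that were lower is not given here. Neighbouring probes in it correlated at r = 0.681 to 0.731 over the whole array, so the 8 are not read as 8 separate measurements. The means over these 8 probes did not overlap between the groups (-0.05, 0.13 and 0.16 against 0.17, 0.36 and 0.36). Glucose intolerance replicate 3 and normal tolerance replicate 1 lay close together, and 15.7% of all regions in that table were separated in this direction. Over the 7 kept probes the difference was -0.225 (limma, adjusted p 0.151). In the scanner ratios 4 of 8 were lower.

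**Figure D2:**
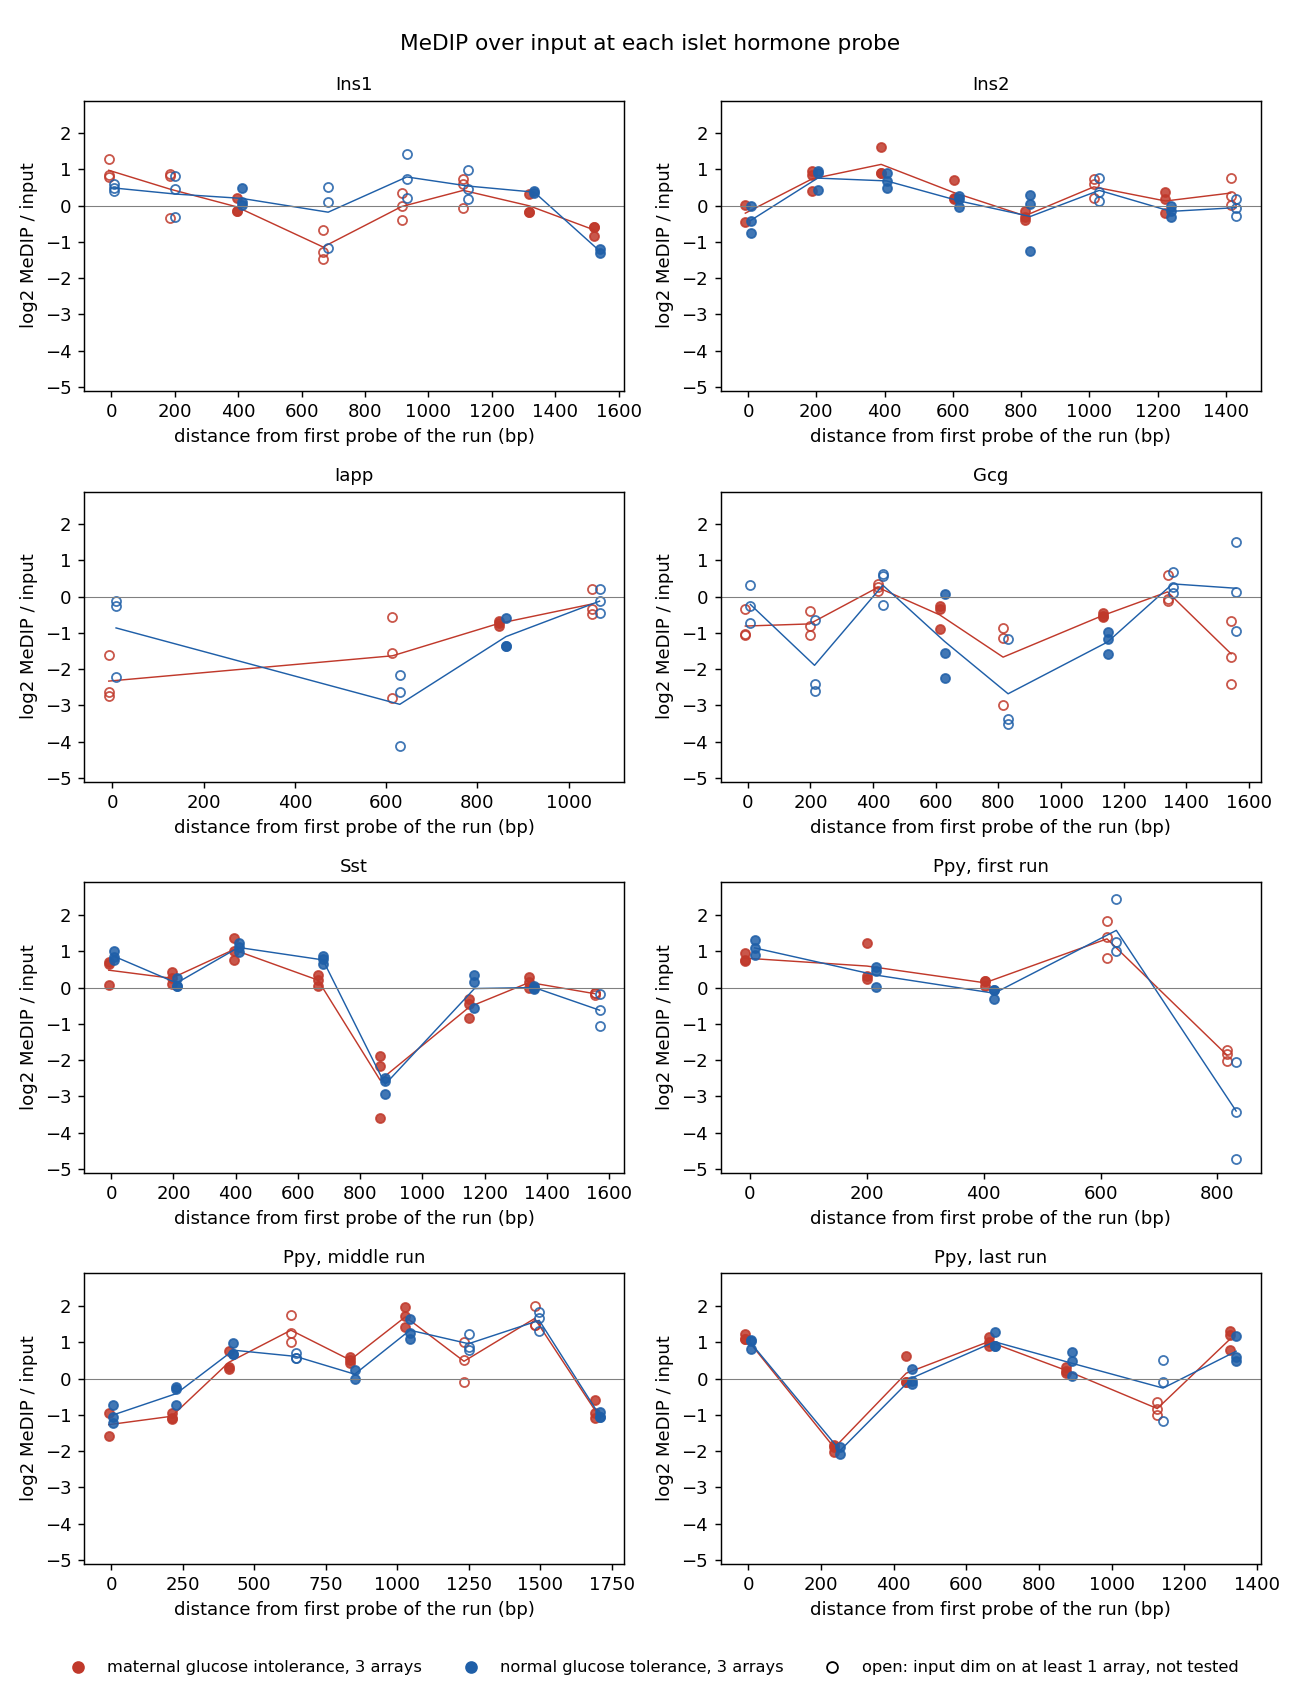
Log2 ratio of MeDIP over input at every probe of the 6 gene windows, against the distance in bp from the first probe of a run; points are arrays, lines join group means, and open points mark probes left out for dim input. The Sst points from -3.60 to -1.90 belong to the probe whose MeDIP signal was not measured above background on any array.

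The Ppy window held 21 probes in 3 separate runs on chromosome 11 (mm9). They started at 101950159, 101962115 and 101968596, with 5, 9 and 7 probes, of which 3, 6 and 6 were kept. In the RefSeq table of build GRCm38.p6 the neighbours of Ppy are Mpp2 and Pyy (peptide YY, a gut hormone of the same peptide family), and which of these genes a run belongs to was not resolved on mm9. The kept probes of the first run averaged 0.51 ± 0.24 with maternal glucose intolerance against 0.43 ± 0.13 without it, those of the middle run -0.01 ± 0.12 and -0.04 ± 0.04, and those of the last run 0.29 ± 0.10 and 0.34 ± 0.15 (SD, n = 3 each). Over the whole window the means were 0.22 ± 0.07 and 0.21 ± 0.05, the smallest difference in window means of the 6 genes (0.01). By the average of the fitted probe differences, Ins1 was nearer 0 (-0.01) than Ppy (0.03). In the fit over all regions, the 3 regions that touch the window differed by 0.22 (95% interval -0.16 to 0.59), 0.01 (-0.26 to 0.28) and -0.04 (-0.39 to 0.31), with adjusted p of 0.515, 0.975 and 0.907. The first and last of these regions extend beyond the window and hold 6 and 7 probes. The first difference was 0.06 without glucose intolerance replicate 1 and 0.04 after loess normalization. In the authors' deposited table the first region, with 9 probes, had all glucose intolerance arrays above the others (17.6% of all regions did), with a difference of 0.18 (limma, adjusted p 0.151). At 1 probe of the middle run, starting at 101962335, the ratio was -1.10, -0.94 and -1.07 against -0.72, -0.24 and -0.28. The groups did not overlap, and the difference was -0.62 with a 95% interval from -1.13 to -0.12 (limma, adjusted p 0.241). Unlike the other 3 probes at an unadjusted p under 0.05, this one differed through its MeDIP signal (-0.70 relative to the array median) and not its input (0.05). Of the 15 tested Ppy probes 10 were higher and 5 lower.

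**Figure D3:**
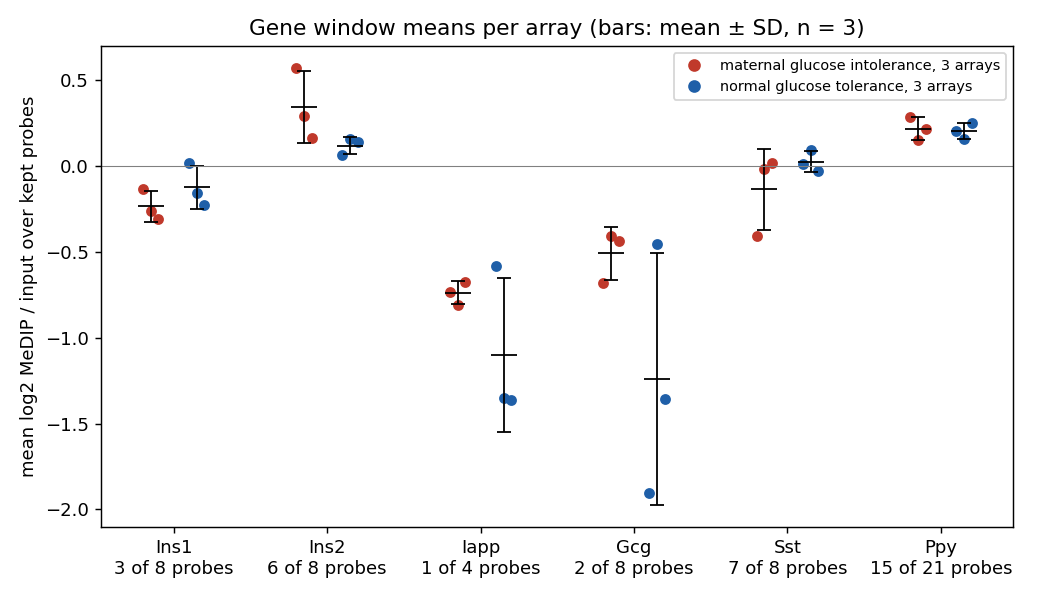
Mean log2 ratio over the kept probes of each gene window on each array, with group means and SD bars (n = 3). The Ppy values coincide (0.22 and 0.21), the Ins2 groups do not overlap, and the spread is widest for normal tolerance at Gcg (SD 0.73) and Iapp (SD 0.45), which rest on 2 and 1 probes.

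Group differences were also read against the array-wide shift, since the median of all tested probes was 0.13 log2 units higher with maternal glucose intolerance under median centring and -0.02 after loess normalization. Beyond the shift of 0.13, the window means differed by 0.60 for Gcg, 0.23 for Iapp and 0.09 for Ins2, and by -0.12 for Ppy, -0.25 for Ins1 (where normal tolerance replicate 1 enters through 1 probe) and -0.30 for Sst. Before it, the differences were 0.73, 0.36, 0.22, 0.01, -0.11 and -0.16. The sign of the Ppy difference turned under 8 of 21 other settings, and that of Ins1 with normexp background correction (0.09), while the Sst difference kept its sign under all 18 settings run. The differences of Gcg, Iapp and Ins2 turned to -0.06, -0.06 and -0.01 with the authors' deposited values and no filter.

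**Figure D4:**
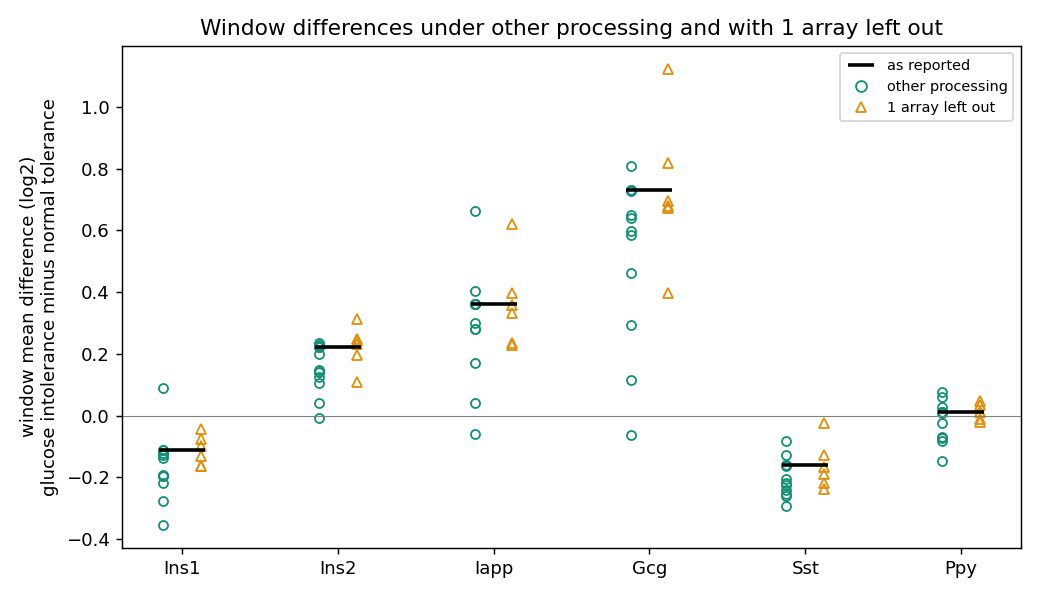
Difference of the window mean (log2, glucose intolerance minus normal tolerance) as reported (bars), under other processing (circles) and with 1 array left out (triangles). Ppy values lie on both sides of 0, Sst values below it from -0.29 to -0.02, and the Gcg difference moves most, from -0.06 to 1.12.

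The 23 probes left out for dim input differed by -1.81 to 1.55 log2 units between the groups, a wider span than among the tested probes, with 11 higher, 12 lower and a median of -0.06. For 8 of them MeDIP, too, failed to clear background on each of the arrays. With these probes kept, 7 of 57 reached an unadjusted p under 0.05 (12.3%, beside 16.4% of all probes) and the lowest adjusted p was 0.210 (limma).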

How the data were processed

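The 6 arrays were deposited as Agilent scanner files, which per the file headers came from Feature Extraction 11.0.1.1 run under a ChIP protocol, with probes on build mm9. Their processed intensity values were background-subtracted and scaled by a linear dye factor, per the file headers. The authors also deposited a table of log2 ratios of unstated making. On the kept probes its values correlated with each array's scanner ratios (r from 0.882 to 0.922), which sets its direction.

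Here log2 of processed Cy5 over Cy3 intensity was centred on each array's median over 174638 non-control probes. Outlier spots (1.77%) were set to missing, and only probes with input well above background on all 6 arrays were kept. Probes with at least 2 values per group, and regions (runs of at least 3 kept probes with starts at most 500 bp apart, complete on all arrays), were fitted with limma 3.58.1 in R 4.3.3 on the whole array (113885 probes, 18562 regions), with Benjamini-Hochberg adjustment. Differences are glucose intolerance minus normal tolerance. Window means carry no test. The fit was tested on simulated data with independent noise on each array, no slide effect and changes larger than at any tested hormone probe. That simulation therefore does not show how the fit behaves with small differences or with a slide effect. The number of arrays limits the precision.

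In each window the text names the complete kept probe with the largest difference, the one with the lowest p, and every tested region; other probes named were chosen after their values were seen. The windows, lists and tests were chosen with earlier results of these data known. The listed genes outside the windows were not analysed here, since the files pair probes with coordinates only. Normexp was run on median signals, since the files used here gave no mean signals. Alternatives were other filters, background corrections, normalizations, centring, the authors' table, slide and replicate blocks, wider region gaps and each array left out.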

Additional observations from a re-analysis of the deposited data

How the results depend on the processing

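Hormone probes and regions passed an adjusted p of 0.05 in limma only with the authors' values and no filter (3 and 1, all Ins1). That setting was added after seeing the data. The lowest adjusted p of a member probe elsewhere was 0.0612, without normal tolerance replicate 1. In the other settings 0 to 6456 of all probes and 0 to 1857 of all regions passed, the most with normexp. With so few hormone probes and regions, 0 does not set them apart. At an unadjusted p under 0.05 there were 4 of 34 probes (11.8%, beside 15.9% of all tested probes). There were 7 of 57 with no filter (12.3%, beside 16.4%), 7 of 34 with normexp (20.6%, beside 28.0%), 13 of 57 with the authors' values and no filter (22.8%, beside 30.0%) and 1 of 34 with the slide as a random block (2.9%, beside 5.2%). With 1 array left out the count ran from 1 to 7. It was 7 of 33 without normal tolerance replicate 1 (21.2%, beside 29.2%), 1 of 31 without normal tolerance replicate 3 (3.2%, beside 8.9%), 2 of 32 without glucose intolerance replicate 1 (6.2%, beside 13.1%) and 1 of 33 without glucose intolerance replicate 3 (3.0%, beside 11%). In each of these settings the hormone probes' share was below that of all probes.

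With no filter the window difference was 0.116 for Gcg and 0.0396 for Iapp. With the authors' values it was 0.0401 for Ins2, and with no filter as well -0.0631 for Gcg, -0.0585 for Iapp, -0.354 for Ins1 and -0.0074 for Ins2. Ins1 went to 0.0882 with normexp and -0.276 with loess. Ppy went to -0.0713 with dim MeDIP spots raised to the background limit, 0.0750 with normexp, -0.146 with loess, -0.0808 with quantile normalization, -0.0686 with centring on the tested probes, 0.0852 over its first run and -0.0466 over its last run. The cause was not tested.

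The middle Ppy region turned to -0.0746 with dim MeDIP raised, -0.154 with outlier spots kept, -0.139 with loess, -0.0669 with quantile normalization, -0.0719 with centring on the tested probes, -0.0737 with the authors' values and -0.107 with these and no filter. With 1 array left out it ran from -0.0600, without glucose intolerance replicate 3, to 0.0490. The last Ppy region turned to 0.0633 with outlier spots kept, 0.0260 with normexp and 0.0236 with the authors' values. With 1 array left out it ran from -0.180 to 0.0465, without normal tolerance replicate 1. The Ins2 region turned to -0.0074 with the authors' values and no filter. The 8 named probes kept their sign in all 141 pairs of probe and setting. They had been picked from these arrays for the largest difference or lowest p in their window, and the settings reuse the same arrays. A kept sign is therefore not read as support for a difference.

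With the replicate number as a block, 5 of 34 probes (14.7%, beside 22.2% of all) reached an unadjusted p under 0.05 and 0 an adjusted one, which 4622 of all probes passed. Deviations of arrays with a shared number correlated at 0.493, 0.453 and 0.017, and 4 of 6 arrays correlated best with their own number. The sample titles give the numbers as replicates only. Whether a shared number marks a pair or a batch was not tested, and the main fit does not use the numbers. A dim input limits Iapp and Gcg most.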

Other observations

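The authors' deposited table gave a different picture by gene from the scanner ratios when all 57 probes were counted. Lower with maternal glucose intolerance in that table were 7 of 8 Ins1 probes, 8 of 8 Sst probes, 5 of 8 Gcg probes, 4 of 8 Ins2 probes, 2 of 4 Iapp probes and 10 of 21 Ppy probes. In the scanner ratios these counts were 5, 4, 4, 1, 2 and 8. The median difference over all probes of the table was 0.011, and the share of them that were lower is not given here. Neighbouring probes correlated at r = 0.681 to 0.731 in the table, against 0.230 to 0.309 in the ratios computed here. Why these differ was not tested, and counts of neighbouring probes are not read as counts of separate measurements. These correlations are across probes on the whole array.

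At Ppy, Ins2, Iapp and Gcg the means of the table over all probes of a window overlapped between the groups. For Ppy they were 0.34 ± 0.04 in the glucose intolerance group and 0.36 ± 0.0038 in the other, and for Gcg -0.67 ± 0.09 and -0.61 ± 0.33 (SD, n = 3 each).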
